A study of Mus musculus with 12 samples.

Results

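The long non-coding RNAs Meg3, Malat1, Neat1, Miat, Snhg11 and A330069E16Rik were 6 of the 50508 gene models counted, and of all models 26350 had a UMI in some well. A UMI is a molecular tag that stands for 1 captured transcript molecule. The 6 genes were chosen by name, after their levels by gate and treatment in these samples had been seen. Their differences between the sorting gates and between irradiated and homeostasis mice are therefore given as a description. No p-values are printed for them, and genes called at a threshold are a further description, not evidence for the differences. Of the 6 genes, 5 passed the filter on low counts and entered the fit of 8555 genes, while Miat did not.

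The cells came from intestinal LMMP, the longitudinal muscle with the attached myenteric plexus, whose ganglia steer gut movement. They were taken from adult C57BL/6 mice and sorted singly into wells. Every cell carried Dclk1-tdTom, a red reporter tied to the doublecortin-like kinase gene Dclk1, and every mouse had received 3 mg of tamoxifen, so no group lacks either. Irradiated mice received tamoxifen at 8 weeks of age (replicate 1) or 9 weeks (replicates 2 and 3), were exposed to 10.5 Gy after 7 days, and were collected 10 days after tamoxifen. Homeostasis mice received tamoxifen at 8 weeks (replicates 1 and 3) or 9 weeks (replicate 2) and were collected after the same interval without irradiation. Surface CD49b, an integrin alpha chain, divided the cells into CD49b+ cells, labelled glial, and CD49b− cells, labelled neuronal. The 4 groups had 3 plates of 96 wells each, and a replicate number stands for 1 pool of 2 mice that filled a plate of either gate. The labels do not give the construction of the reporter allele, and only cells that carried it were sorted.

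Long non-coding RNAs are transcripts without a known protein product that act, where a function is known, as RNA. Malat1 gathers in nuclear speckles, which store splicing factors, and Neat1, transcribed from the neighbouring gene, is the RNA scaffold of paraspeckles. Meg3 is transcribed from the maternal copy of the imprinted Dlk1-Dio3 region and is abundant in many neurons of the brain. Miat is a nuclear RNA first described in neurons and the retina. Snhg11 hosts small nucleolar RNAs in its introns and is also known from brain neurons. No function of A330069E16Rik is stated here.

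In GENCODE vM21, on GRCm38, Meg3 lies at chr12:109541001-109571726 on the plus strand, and Miat at chr5:112213228-112229395 on the minus strand. Malat1 at chr19:5795690-5802672 and Neat1 at chr19:5824708-5845478 are both on the minus strand, 22036 bases apart. Snhg11 at chr2:158375638-158386145 is on the plus strand and is listed as protein_coding, whereas the other 5 are listed as lincRNA. A330069E16Rik at chr2:91237146-91238352, on the plus strand, starts 164 bases from the start of Ddb2, which is transcribed from the minus strand and encodes a DNA damage recognition protein. Ddb2 had 2 UMIs in all retained wells.

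The promoters of A330069E16Rik, called after irradiation in CD49b− plates, and of Meg3, called with Snhg11 in CD49b+ plates, are shown. Both calls in CD49b+ plates ended in a fit without a few wells, as given below. RefSeq start sites (GRCm38.p6) gave 6 promoter windows for 5 of the 6 genes. Each window ran from 250 bases before to 50 bases after a start. Capitals mark the GC box GGGCGG in the first sequence, where it appears on the opposite strand as CCGCCC. In the second they mark the cAMP response element TGACGTCA and the TATA box TATAAA, which matched on both strands with overlap. Motifs were searched on both strands.
A330069E16Rik, chr2:91236983-91237195, plus strand, the part of the window outside Ddb2: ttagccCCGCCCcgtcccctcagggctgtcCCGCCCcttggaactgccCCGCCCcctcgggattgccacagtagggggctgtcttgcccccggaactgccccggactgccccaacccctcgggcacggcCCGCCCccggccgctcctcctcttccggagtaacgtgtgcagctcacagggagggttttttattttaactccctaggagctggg
Meg3, chr12:109540746-109541045, plus strand: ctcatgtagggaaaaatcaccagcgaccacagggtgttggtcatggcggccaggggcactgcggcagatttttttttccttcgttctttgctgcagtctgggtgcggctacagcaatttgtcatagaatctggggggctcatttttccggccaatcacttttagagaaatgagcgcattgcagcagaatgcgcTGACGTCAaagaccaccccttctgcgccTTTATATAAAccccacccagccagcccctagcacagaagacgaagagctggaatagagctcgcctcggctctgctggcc
The A330069E16Rik window held 4 GC boxes, at 157, 133, 115 and 34 bases before the start, and 66% of its 300 bases were G or C, against a median of 52.7% over all 32851 promoters. At least 1 GC box was present in 35.7% of those promoters. The Meg3 window shown held the cAMP response element 57 bases before the start, a motif in 1.79% of promoters. It also held the TATA box at 29 and 25 bases before the start, a motif in 13.6%. The other Meg3 window, chr12:109545148-109545447, held neither motif. A p53 half-site, searched by its consensus, occurred in 8.36% of promoters and in none of the 6 windows. A match of letters is not a measured binding site, and a missing match says only that the letters are not in the window.

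Retained wells numbered 213 in irradiated CD49b+ plates, 223 in homeostasis CD49b+ plates, 266 in irradiated CD49b− plates and 262 in homeostasis CD49b− plates, with 150561 to 243340 UMIs per CD49b+ plate and 541729 to 746674 per CD49b− plate. The median well held 2475, 2390, 6985.5 and 7486.5 UMIs in those groups. Summed glia markers (10 genes) reached 25532 to 27657 CPM (UMIs scaled to a plate total of 1000000) in irradiated CD49b+ plates and 30797 to 33668 CPM in homeostasis CD49b+ plates, but 48.5 to 62.8 CPM and 62.6 to 248 CPM in irradiated and homeostasis CD49b− plates. Summed neuron markers (11 genes, of which Uchl1 was at 0 in every group) reached 425 to 1847 CPM in irradiated CD49b+ plates, 321 to 487 CPM in homeostasis CD49b+ plates, 7661 to 9002 CPM in irradiated CD49b− plates and 8313 to 8406 CPM in homeostasis CD49b− plates. In 4 irradiated CD49b+ wells, 1 on plate 1 and 3 on plate 2, neuron marker UMIs outnumbered glia marker UMIs. The opposite held in 2 homeostasis CD49b− wells of replicate 3, which had few UMIs of either list. Their neuron and glia marker UMIs were 1 and 2, of 2359 UMIs, and 6 and 12, of 13587. Both kinds of wells were flagged by these counts alone. These are called wells against their gate, and results that rest on them are given with and without them. Across 8555 genes, irradiated CD49b+ plate 1 also had the lowest mean correlation with the other CD49b+ plates (r = 0.705, against 0.751 to 0.773 for the other 5).

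**Figure D1:**
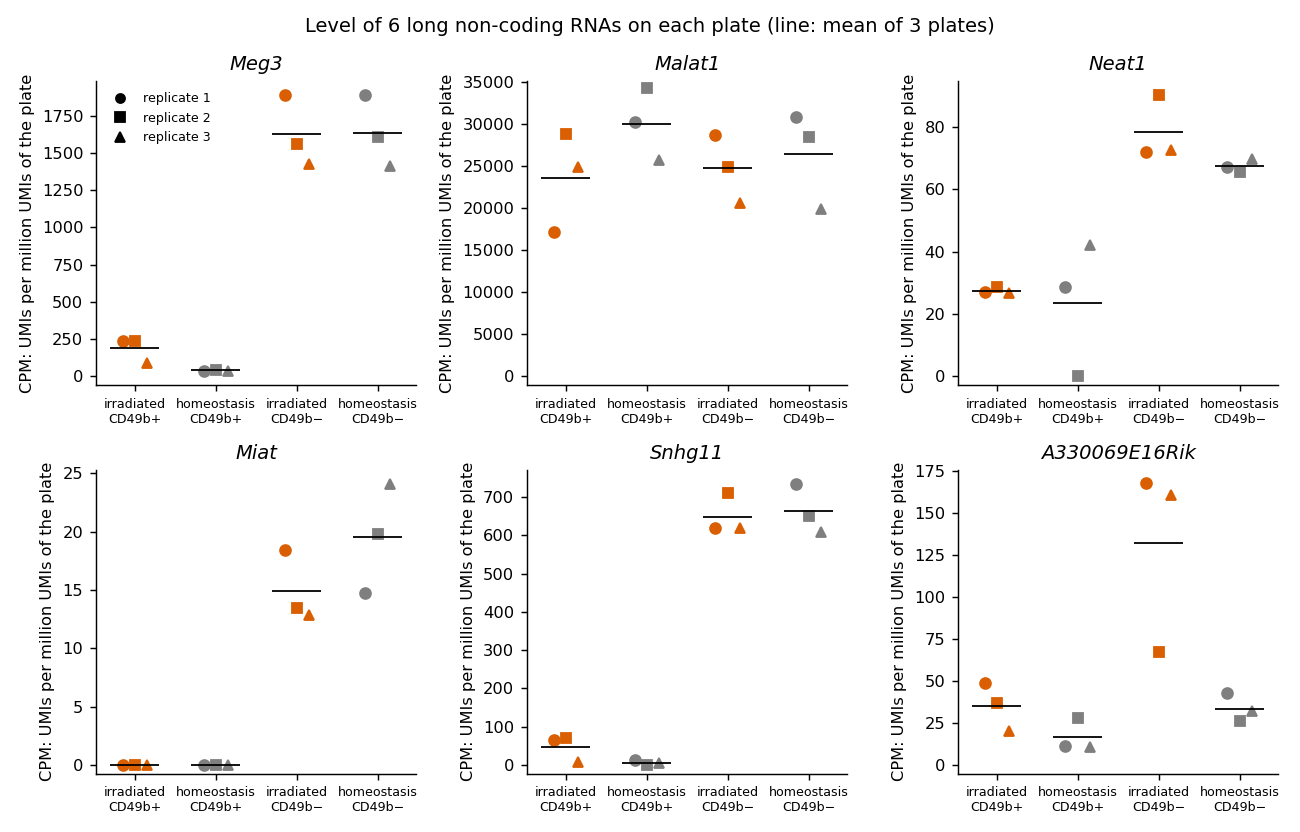
Level of each of the 6 long non-coding RNAs on each plate, in CPM (vertical axes, linear, 1 scale per gene), for the irradiated and homeostasis groups of each gate (horizontal axes). Points are plates, with a marker shape for each replicate number, and lines are means of 3 plates. Meg3, Snhg11 and Miat stand far lower in both CD49b+ groups than in the CD49b− groups, Malat1 covers a similar range in all 4 groups, and the A330069E16Rik plates of irradiated CD49b− cells lie above those of homeostasis CD49b− cells.

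Meg3 was scarce in CD49b+ cells and present in nearly all CD49b− cells. It reached 238.3, 238.4 and 86.3 CPM on irradiated CD49b+ plates 1, 2 and 3, against 1890, 1559 and 1425 CPM on irradiated CD49b− plates. In homeostasis it reached 34.4, 44.8 and 36.8 CPM on CD49b+ plates, against 1888, 1610 and 1413 CPM on CD49b− plates. Every CD49b+ plate lay below every CD49b− plate.
The fitted log2 difference, CD49b+ minus CD49b−, was −4.27 (SE 0.234), and within the 6 pools it ran from −5.66 to −2.70. Without the wells against their gate the fitted difference was −4.73 (SE 0.215). The 3 smallest of these pool differences belonged to the 3 irradiated pools. At least 1 Meg3 UMI was present in 44 of 213 irradiated CD49b+ wells and 17 of 223 homeostasis CD49b+ wells, against all 266 irradiated CD49b− wells and 261 of 262 homeostasis CD49b− wells. Those counts are shares of 20.7% (95% exact binomial interval 15.4 to 26.7), 7.62% (4.50 to 11.9), 100% (98.6 to 100) and 99.6% (97.9 to 100). With every well thinned to 1000 UMIs, since CD49b− wells were deeper, the mean share over plates was 8.95%, 3.58%, 77.8% and 79.4% in the same order.

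Snhg11 had the same shape at a lower count. On irradiated plates it reached 65.0, 69.9 and 6.64 CPM in CD49b+ cells, against 618, 710 and 619 CPM in CD49b− cells. On homeostasis plates it reached 11.5, 0 and 5.26 CPM in CD49b+ cells, against 735, 650 and 609 CPM in CD49b− cells. All CD49b+ plates lay below all CD49b− plates, by a fitted log2 difference of −5.29 (SE 0.309). Without the wells against their gate, irradiated CD49b+ plates 1 and 2 stood at 12.5 and 24.3 CPM, and the fitted log2 difference was −6.11 (SE 0.269). In CD49b+ cells a UMI of Snhg11 was found in 5.16% of irradiated and 1.35% of homeostasis wells, and in CD49b− cells in 95.1% and 94.3%. After thinning, the mean shares over plates were 2.32%, 1.29%, 48.5% and 44.0%.

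Miat was detected in CD49b− cells only, at low counts. The 6 CD49b+ plates had 0 UMIs in 436 wells, which allows a share of up to 0.688% of wells with a UMI. The CD49b− wells held 69 UMIs in 63 of 528 wells, at 18.5, 13.5 and 12.8 CPM on irradiated plates and 14.7, 19.8 and 24.1 CPM on homeostasis plates. Against a floor of 3 counts over all CD49b+ plates, Miat was at least 6.45-fold lower in CD49b+ cells. Irradiated and homeostasis CD49b− plates overlapped.

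Neat1 was lower in CD49b+ plates by a smaller margin. It reached 27.1, 28.8 and 26.6 CPM on irradiated CD49b+ plates, against 72.0, 90.3 and 72.7 CPM on irradiated CD49b− plates. In homeostasis it reached 28.7, 0 and 42.1 CPM in CD49b+ cells, against 67.1, 65.6 and 69.6 CPM in CD49b− cells. No CD49b+ plate reached the lowest CD49b− plate, and the fitted log2 difference was −1.53 (SE 0.321). The counts behind the CD49b+ values were small, with 16 UMIs in 13 irradiated wells and 13 UMIs in 5 homeostasis wells. In CD49b− cells Neat1 had 157 UMIs in 93 irradiated wells and 136 UMIs in 71 homeostasis wells.

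Malat1 was found in all 964 retained wells and took 1.72% to 3.43% of the UMIs of every plate. On irradiated plates its level was 17176, 28844 and 24854 CPM in CD49b+ cells and 28723, 24879 and 20601 CPM in CD49b− cells. On homeostasis plates it was 30193, 34269 and 25731 CPM in CD49b+ cells and 30840, 28454 and 19882 CPM in CD49b− cells. The gates overlapped, and their fitted log2 difference was 0.01 (SE 0.188, 95% interval −0.37 to 0.40). The irradiated pool of replicate 1 stood apart from the other 5 pools, with a log2 difference of −0.74, against −0.03 to 0.37. Its CD49b+ plate had the lowest Malat1 level of the 6 CD49b+ plates and is also the plate with the lowest correlation with the others. Without that plate the fitted difference between the gates was 0.06 (SE 0.177). Without its 1 well against its gate, that plate stood at 18815 CPM and the log2 difference of the pool was −0.61.
Among the 3 plates of each CD49b− group, replicate 1 had the highest Malat1 level and the highest Meg3 level. By their plate numbers the replicate 1 plates of both treatments form 1 set, while replicates 2 and 3 of each treatment form sets of their own. The labels do not say that these sets are runs.

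A330069E16Rik was lower in CD49b+ than in CD49b− plates on average, but not on every plate. It reached 48.7, 37.0 and 19.9 CPM on irradiated CD49b+ plates, against 168, 67.4 and 161 CPM on irradiated CD49b− plates. In homeostasis it reached 11.5, 28 and 10.5 CPM in CD49b+ cells, against 42.6, 25.9 and 32.1 CPM in CD49b− cells. In the homeostasis pool of replicate 2 the CD49b+ plate was slightly above the CD49b− plate. The fitted log2 difference was −1.47 (SE 0.360). Wells with at least 5 UMIs held 214 of 254 irradiated and 40 of 67 homeostasis CD49b− UMIs. Outside such wells 40 and 27 UMIs remained, of 3997972 UMIs of all genes in CD49b− plates. In CD49b+ plates 14 and 9 remained, of 1121478, so relative to depth CD49b+ was then not lower. After thinning, mean shares of wells with a UMI were 3.84% and 1.35% in irradiated and homeostasis CD49b+ plates, against 4.96% and 2.01% in CD49b− plates. These counts were not tested.
Between the gates, 4 of the 5 genes in the fit (Meg3, Snhg11, Neat1 and A330069E16Rik) were called lower in CD49b+ plates and Malat1 was not called, by edgeR's quasi-likelihood test at an adjusted p below 0.05. Of all 8555 genes, 32.4% were called lower and 62.1% in either direction. Plates without overlap, as for Meg3, Snhg11 and Neat1, were seen on the lower side for 18.8% of all genes. The 6 genes had been chosen with these differences known.

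**Figure D2:**
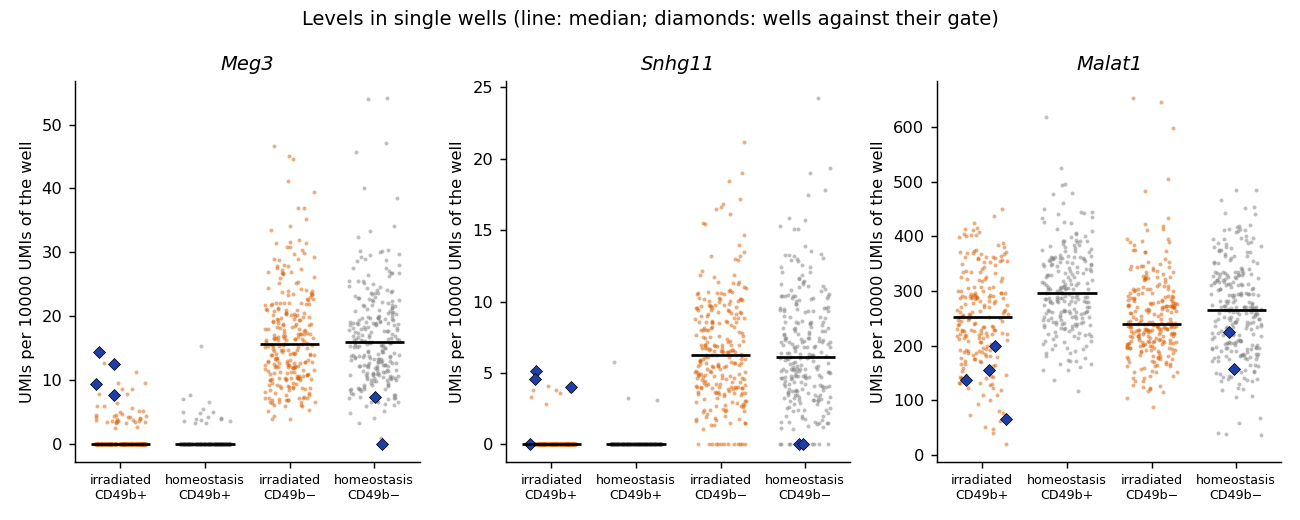
Levels in single retained wells, in UMIs per 10000 UMIs of the well (vertical axes, linear), for the irradiated and homeostasis groups of each gate (horizontal axes). Points are wells, lines are medians and diamonds are wells against their gate. The median CD49b+ well holds no Meg3, whereas nearly all CD49b− wells hold it, with medians of 15.7 (irradiated) and 15.9 (homeostasis).

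Within CD49b− cells Meg3 varied among wells over a wide range, and its levels overlapped between treatments. In irradiated wells it ran from 4.0 to 46.7 UMIs per 10000 with a median of 15.7, and in homeostasis wells from 0 to 54.1 with a median of 15.9. The fitted log2 difference, irradiated minus homeostasis, was 0.02 (SE 0.250, 95% interval −0.50 to 0.53). The plate values given above interleaved, and the plate means were 1625 ± 239 and 1637 ± 239 CPM (SD, n = 3 plates each).
Malat1 averaged 24734 ± 4063 CPM in irradiated and 26392 ± 5763 CPM in homeostasis CD49b− plates, a fitted log2 difference of −0.07 (SE 0.265). Snhg11 averaged 649 ± 52.9 and 665 ± 64.2 CPM in those groups (log2 difference −0.01, SE 0.252), and Neat1 78.3 ± 10.4 and 67.5 ± 2.03 CPM (0.24, SE 0.307). Miat averaged 14.9 ± 3.08 CPM in irradiated and 19.6 ± 4.69 CPM in homeostasis CD49b− plates. Meg3, Malat1, Snhg11 and Neat1 were not called. The 3 irradiated Neat1 plates nevertheless all lay above the 3 homeostasis plates, by a small margin (lowest 72.0 CPM, against a highest of 69.6 CPM).

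A330069E16Rik was higher after irradiation in CD49b− cells. It averaged 132 ± 56.2 CPM in irradiated and 33.6 ± 8.40 CPM in homeostasis CD49b− plates, and the lowest irradiated plate (67.4 CPM) stood above the highest homeostasis plate (42.6 CPM). The fitted log2 difference was 1.99 (SE 0.343). It was the single call among the 5 genes, beside 4 calls among all 8555 genes (0.0468%), all higher after irradiation. Plates without overlap on the higher side, as for A330069E16Rik and Neat1, were seen for 5.51% of all genes. Leaving out irradiated plate 1 or 3, or homeostasis plate 2 or 3, ended the call, with log2 differences of 1.78, 1.83, 1.86 and 1.95. Within the replicate 1 set, the only one with both treatments, the levels were 168 CPM on the irradiated plate and 42.6 CPM on the homeostasis plate.

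The difference was carried by few wells. Irradiated CD49b− plates had 254 A330069E16Rik UMIs in 39 of 266 wells, 14.7% (95% exact interval 10.6 to 19.5), and homeostasis plates had 67 UMIs in 23 of 262 wells, 8.78% (5.65 to 12.9). The intervals, which cover counting error only, overlap. A single UMI was all that 19 of the 39 irradiated wells and 16 of the 23 homeostasis wells held.
Wells with at least 5 UMIs numbered 12 on the irradiated plates, with 214 of the 254 UMIs (84.3%), and 4 on the homeostasis plates, with 40 of the 67 UMIs (59.7%). Irradiated plate 1 had wells with 30, 29, 10 and 7 UMIs, plate 2 had wells with 16, 16 and 11, and plate 3 had wells with 41, 20, 14, 12 and 8. Homeostasis plate 1 had 1 such well with 15 UMIs, plate 2 had 1 with 6, and plate 3 had 2 with 14 and 5. High wells thus occurred on all 6 CD49b− plates, and wells with more than 15 UMIs on the irradiated plates only. Below 5 UMIs per well, 40 UMIs remained on irradiated and 27 on homeostasis plates.
With every gene capped at 1 UMI per well, an alternative chosen after seeing the data, A330069E16Rik no longer passed the filter on low counts. Among 2228 tested genes with 127 to 508 UMIs on irradiated CD49b− plates, its 5 highest wells held 53.5% of the UMIs, against a median of 10.1% for these genes, the fifth highest share. It was detected in 39 wells, against a median of 132, the second fewest.

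The 17 wells with 5 or more A330069E16Rik UMIs in all groups, including 1 irradiated CD49b+ well of replicate 2 with 7 UMIs, held 3654 to 13776 UMIs in all, with a median of 8461. The median CD49b− well held 7243. Of 96 well barcodes, 95 occur on all 12 plates, so barcodes were compared. In 51 wells with the same barcode on other plates of the same plate number set, 3 had an A330069E16Rik UMI and none had more than 1.
By neuron class, as given further on, irradiated plates had 7 high wells among 180 nitrergic wells and 4 among 76 cholinergic wells. Homeostasis plates had 3 among 159 and 1 among 96. High wells thus occurred in both classes.
Of the other genes called after irradiation in CD49b− plates, 3 were gene models from a satellite-like list. One of them, Gm10800, reached 111, 120 and 78.4 CPM on irradiated and 1.64, 3.05 and 1.34 CPM on homeostasis CD49b− plates. A Gm10800 UMI was present in 9 of the 39 irradiated wells with A330069E16Rik (23.1%) and in 40 of the 227 without it (17.6%).

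**Figure D3:**
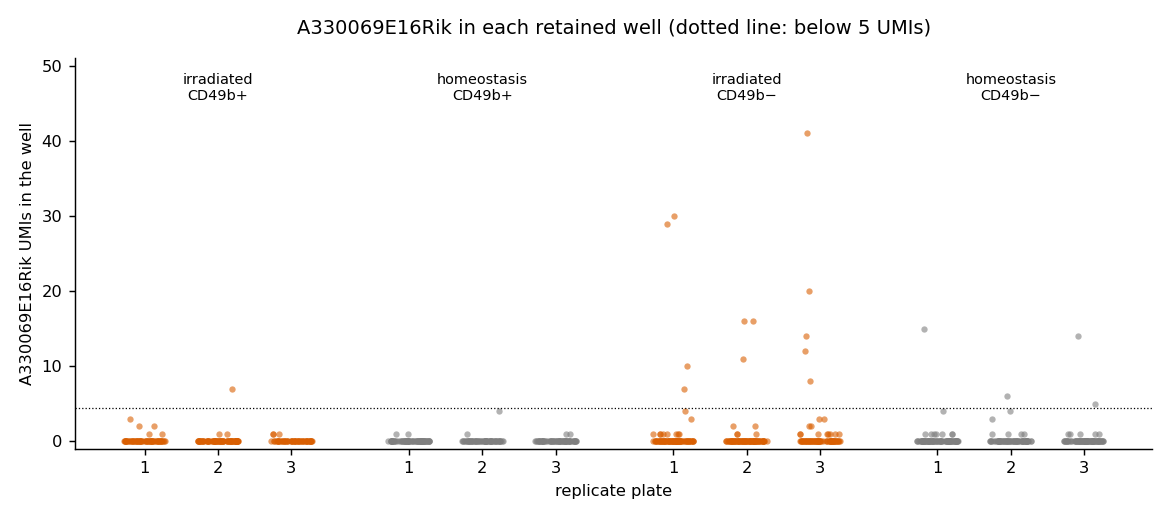
A330069E16Rik UMIs (vertical axis, linear) in every retained well of the 12 plates (horizontal axis, by group and replicate). Each point is a well and the dotted line separates wells below 5 UMIs. The wells above the line number 1 on the irradiated CD49b+ plates, 12 on irradiated CD49b− plates and 4 on homeostasis CD49b− plates.

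In CD49b+ plates, Meg3 and Snhg11 were higher after irradiation and were called. Meg3 averaged 188 ± 87.8 CPM in irradiated and 38.7 ± 5.43 CPM in homeostasis plates, without overlap, and the fitted log2 difference was 2.44 (SE 0.398). Snhg11 averaged 47.2 ± 35.2 CPM in irradiated and 5.58 ± 5.75 CPM in homeostasis plates, which overlapped. With 30 UMIs after irradiation and 3 in homeostasis, its ratio was 9.39 (95% counting interval 2.92 to 48.1). The Snhg11 call ended when any 1 plate other than irradiated CD49b+ plate 3 was left out, with log2 differences of 2.69 to 4.23 in the 5 such fits that left out a CD49b+ plate and 3.23 to 3.25 in the 6 that left out a CD49b− plate. The Meg3 call ended without homeostasis CD49b+ plate 3, at a log2 difference of 2.43. The other values, as log2 differences, were 1.23 (SE 0.674) for A330069E16Rik, 0.33 (SE 0.616) for Neat1 and −0.23 (SE 0.266) for Malat1, none of them called. Among all 8555 genes 0.713% were called, and 4.82% had irradiated CD49b+ plates above homeostasis plates without overlap.

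Neuron markers were compared on the same plates. In the fit of all retained wells, 4 of the 10 neuron markers tested were called higher on irradiated CD49b+ plates. Among all genes 0.713% were called, in either direction. The 4 irradiated CD49b+ wells against their gate held 65 of the 115 Meg3 UMIs and 22 of the 30 Snhg11 UMIs of that group. They had 24748 UMIs on plate 1 and 12699, 13170 and 11627 on plate 2, against 2462 in the median CD49b+ well. Their neuron and glia marker UMIs were 180 and 142 in the first, then 59 and 46, 66 and 65, and 78 and 34. Each held UMIs of both marker lists.
Without these wells Meg3 stood at 156, 58.3 and 86.3 CPM on irradiated plates, against the homeostasis values of 34.4, 44.8 and 36.8 CPM. The plates still did not overlap, as for 4.64% of all genes in that comparison. The log2 difference was 1.42 (SE 0.404) for Meg3. For Snhg11, with 8 UMIs left, the ratio was 2.80 (0.673 to 16.4). Of the 5 genes, 0 were called by edgeR in that fit, with 1 at an unadjusted p below 0.05, and the share over all genes was 0.292%.
In the remaining wells, Meg3 was detected in 20 of 68, 11 of 81 and 9 of 60 irradiated wells, against 5 of 81, 5 of 70 and 7 of 72 homeostasis wells, at most 3 UMIs in any of them. Neuron markers of these wells summed to 1007, 539 and 425 CPM on irradiated and 425, 487 and 321 CPM on homeostasis plates. Per 100 neuron marker UMIs there were 15.5, 10.8 and 20.3 Meg3 UMIs on irradiated CD49b+ plates and 8.11, 9.20 and 11.5 on homeostasis CD49b+ plates. In CD49b− plates of the same pools the figures were 24.7, 18.8 and 15.8 after irradiation and 22.5, 19.3 and 16.9 in homeostasis. The part of neuron-derived RNA in the remaining CD49b+ wells was not tested.

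**Figure D4:**
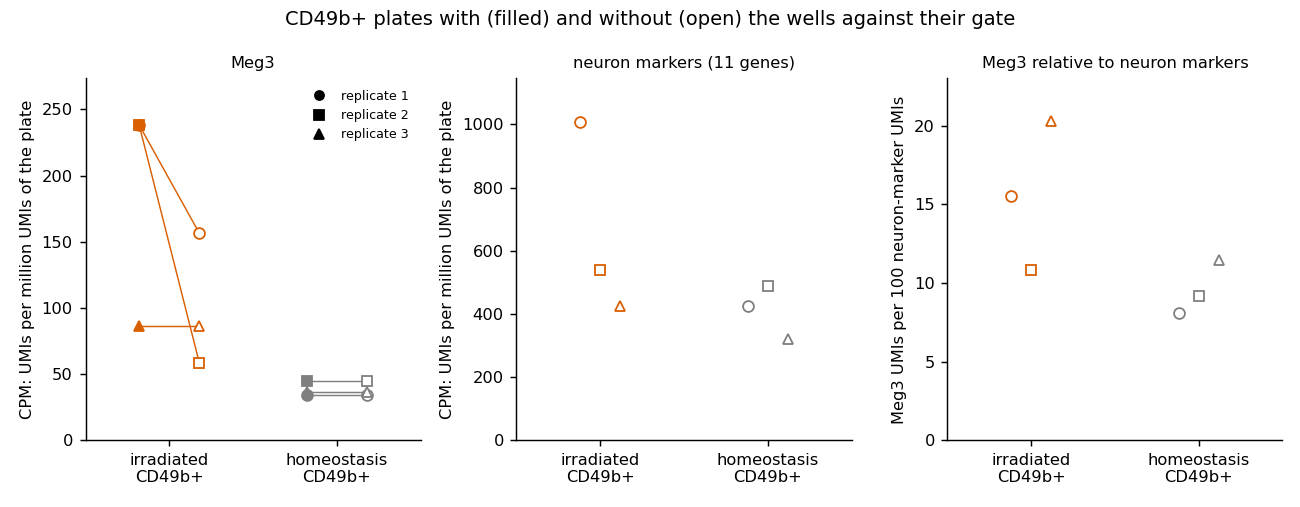
Meg3 on CD49b+ plates, irradiated left and homeostasis right, as CPM (first panel), with the summed neuron markers in CPM and the Meg3 UMIs per 100 neuron marker UMIs (vertical axes, linear from 0). Points are plates. Filled points, in the first panel, include the wells against their gate and open points leave them out, which lowers irradiated plates 1 and 2 to 156 and 58.3 CPM and leaves the homeostasis plates, at 34.4 to 44.8 CPM, in place.

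The irradiation effects in the gates were also set against each other. The difference of the log2 differences, CD49b+ minus CD49b−, was 2.42 (SE 0.476) for Meg3, 3.27 (SE 0.808) for Snhg11, −0.76 (SE 0.808) for A330069E16Rik, −0.16 (SE 0.375) for Malat1 and 0.09 (SE 0.674) for Neat1. Of these 5, 0 were called by edgeR, 2 had an unadjusted p below 0.05, and DESeq2 called 2, Meg3 and Snhg11. The share called over all genes was 0.0117%. Without irradiated CD49b+ plate 3, the only plate of its group with no well against its gate, edgeR called the same 2 genes. In the fit without the wells against their gate, edgeR called 0 of the 5, with 1 at an unadjusted p below 0.05. These counts are a description, since the genes were chosen with the levels behind them known. For A330069E16Rik, 21 and 9 UMIs stood behind the irradiated and homeostasis CD49b+ values.

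The choice of the 6 genes did not use classes of neurons, and these were compared with a test. Nitrergic wells were CD49b− wells with at least 1 UMI of Nos1, the neuronal nitric oxide synthase, and cholinergic wells had 0 Nos1 UMIs and at least 1 of Chat or Slc18a3, the acetylcholine synthesis enzyme and vesicle transporter. There were 339 nitrergic and 172 cholinergic wells, summed by class on each of the 6 CD49b− plates, and the plate was a term in the fit. The class depends on detecting a UMI, and the median nitrergic well was deeper, with 7266 UMIs against 6622 for cholinergic wells after irradiation and 8079 against 6906.5 in homeostasis.
Malat1 was higher in nitrergic wells on 6 of 6 plates. On irradiated plates it reached 29948, 26161 and 21459 CPM in nitrergic wells, against 24822, 23027 and 17723 CPM in cholinergic wells. On homeostasis plates it reached 31942, 29180 and 20402 CPM in nitrergic wells, against 29702, 24719 and 19221 CPM in cholinergic wells. The difference within a plate was smaller than the spread between plates (26515 ± 4720 and 23202 ± 4314 CPM, SD, n = 6), and pairing by plate brought it out.
The fitted log2 difference for Malat1 was 0.25 (SE 0.055, 95% interval 0.14 to 0.36), with an adjusted p of 0.00213 by edgeR over 5172 genes. Of those genes 8.12% were called, and 5.43% were higher in nitrergic wells on all 6 plates. With wells thinned to 1000 UMIs, and the classes assigned anew from the thinned counts, the log2 difference was 0.19 (SE 0.094). The call ended there (adjusted p of 0.169 by edgeR over 444 genes), with depth and class membership changed together.

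None of the other 4 genes in this fit was called. Meg3 averaged 1583 ± 223 CPM in nitrergic and 1770 ± 247 CPM in cholinergic wells, lower on 6 of 6 plates, which held for 7.12% of genes (log2 difference −0.10, SE 0.063, edgeR adjusted p of 0.445). Neat1 ran opposite to Malat1, at 63.9 ± 9.94 CPM in nitrergic and 94.3 ± 18.7 CPM in cholinergic wells, lower on 6 of 6 plates, from 172 and 108 UMIs (−0.43, SE 0.193, edgeR adjusted p of 0.216). Snhg11 averaged 623 ± 20.7 and 704 ± 99.8 CPM in nitrergic and cholinergic wells (−0.12, SE 0.080, edgeR adjusted p of 0.501). A330069E16Rik averaged 75.5 ± 61.1 and 110 ± 155 CPM, higher in nitrergic wells on 3 of 6 plates (−0.34, SE 0.397, edgeR adjusted p of 0.740). Miat, below the filter, averaged 11.8 ± 5.33 CPM in nitrergic and 29.1 ± 13.9 CPM in cholinergic wells, from 33 and 34 UMIs, and was lower in nitrergic wells on 5 of 6 plates.

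**Figure D5:**
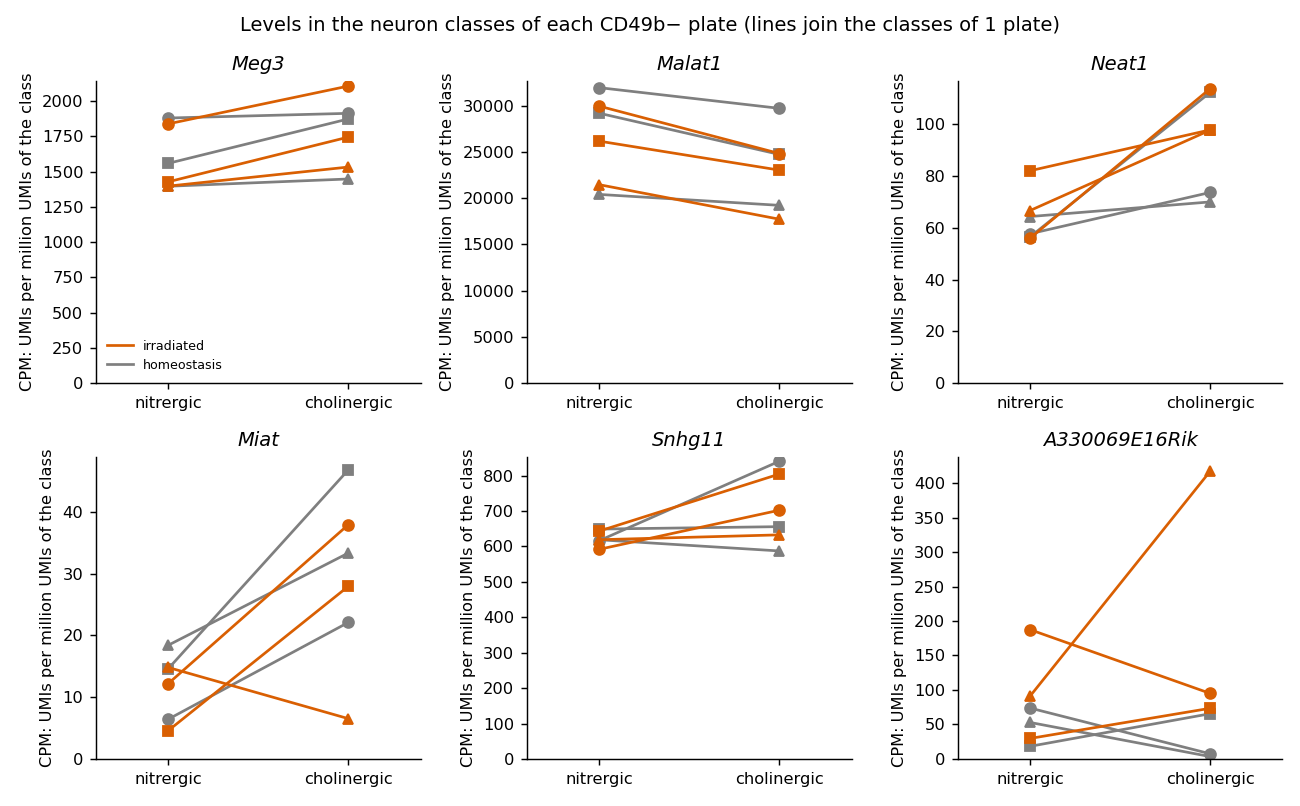
Levels in nitrergic (left) and cholinergic (right) wells of each CD49b− plate, in CPM of the class (vertical axes, linear from 0). Each line joins the classes of 1 plate. All 6 Malat1 lines are higher at the nitrergic end, and all 6 Meg3 and Neat1 lines are lower there.

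In CD49b+ cells, 290 wells with at least 1 UMI of Gfap, the astrocyte-type intermediate filament of glia, were compared with 146 wells without one. Malat1, the only one of the 6 genes in that fit of 1731 genes, averaged 27511 ± 5437 CPM in Gfap-positive and 25641 ± 6843 CPM in Gfap-zero wells (SD, n = 6 plates). The log2 difference was 0.11 (SE 0.082, 95% interval −0.06 to 0.28, edgeR adjusted p of 0.865), and with 0 calls by edgeR, 0 at an unadjusted p below 0.05 and 0 by DESeq2, it stood beside 0.173% of all genes called. Malat1 was higher in Gfap-positive wells on 4 of 6 plates. All 4 irradiated wells against their gate are Gfap-zero wells. Without them, an alternative chosen after seeing the data, Malat1 averaged 27511 ± 5437 CPM in Gfap-positive and 27616 ± 5581 CPM in Gfap-zero wells, was higher in Gfap-positive wells on 2 of 6 plates, and had a fitted log2 difference of 0.00283 (SE 0.0360).
Meg3 was lower in Gfap-positive wells on 6 of 6 plates, at 58.7 ± 40.8 CPM against 233 ± 232 CPM in Gfap-zero wells, from 45 and 91 UMIs. Without the wells against their gate the Gfap-zero mean was 108 ± 90.7 CPM, with Gfap-positive wells lower on 5 of 6 plates. Neat1 was found mostly in Gfap-positive wells, with 26 UMIs there and 3 in Gfap-zero wells (1 without the wells against their gate), at 35.8 ± 24.0 and 6.72 ± 10.7 CPM, higher in Gfap-positive wells on 5 plates and absent from both classes on the remaining plate. These genes were below the filter of that fit and were not tested there.

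Within CD49b− plates correlations between these RNAs over wells were weak. Meg3 and Snhg11 per 10000 UMIs correlated positively on all 6 plates (Pearson r 0.13 to 0.39, median 0.22, 528 wells), and Snhg11 was the second most alike of 5231 genes to Meg3, while Meg3 was the most alike to Snhg11. Malat1 and Neat1 correlated negatively on all 6 plates (r −0.40 to −0.06, median −0.19). Levels per 10000 UMIs share the depth of the well, with which Meg3 itself correlated at a median r of −0.23 and Malat1 at −0.17. Wells of 1 plate share a library, so no test is given.
Over the 12 plates, which fall into the gates, log2(CPM + 1) of Meg3 was most like that of Chgb, a granin of secretory granules (r = 0.992), Prkcz (0.990) and Kif5a, a neuronal kinesin (0.990). Snhg11 was most like Eef1a2 (0.996), Prkar1b (0.994) and Cystm1 (0.994), and Neat1 like Nucb2 (0.974), Dync1li1 (0.972) and Snx16 (0.969). Fam57b was among the genes most alike to Miat (0.997). Malat1 and A330069E16Rik had weaker likenesses, with Gm4835 (0.880), Zfp644 (0.831) and Dalrd3 (0.824) for Malat1 and Spink8 (0.830), Commd9 (0.827) and Myl12b (0.822) for A330069E16Rik.

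Genes related to the 6 were read from lists, compiled with earlier results of these data known. Of 6 imprinted neighbours of Meg3 in the Dlk1-Dio3 region, 3 were in the fit and all 3 were called lower in CD49b+ plates, beside 32.4% of all genes, with a median log2 difference of −3.93 against −0.13 over all genes. Rian, a long RNA transcribed from the same strand 32214 bases beyond Meg3, averaged 13.6 ± 13.1 CPM in irradiated CD49b+, 5.69 ± 5.74 in homeostasis CD49b+, 140 ± 23.9 in irradiated CD49b− and 143 ± 14.9 CPM in homeostasis CD49b− plates (log2 difference CD49b+ minus CD49b− −3.93, SE 0.359). Mirg, a further RNA of that region, had a log2 difference of −3.21 (SE 0.598), and Begain had no UMI in CD49b+ plates, against 56.5 ± 9.28 and 49.4 ± 6.76 CPM in irradiated and homeostasis CD49b− plates. Neither Meg3 nor these 3 neighbours were called after irradiation in CD49b− plates, where 0.0468% of all genes were. In irradiated CD49b+ plates Rian averaged 3.83 CPM without the wells against their gate.
Of 10 paraspeckle and speckle protein genes in the fit, 8 were not called between the gates, where 62.1% of all genes were called. Son was called higher (0.93, SE 0.162) and Nono lower (−0.96, SE 0.234) in CD49b+ plates. The list median was −0.13, the same as the −0.13 over all genes. Of 10 snoRNA host genes in the fit besides Snhg11, 3 were called higher, among them Snhg18 (2.25, SE 0.605) and Snhg9 (1.08, SE 0.221), and 3 lower, among them Snhg14 (−2.24, SE 0.564) and Zfas1 (−1.40, SE 0.376), a total near the 62.1% of all genes called between the gates. Snhg1 was not called (−0.87, SE 0.631). Of 9 other long non-coding RNAs, 4 were called higher in CD49b+ plates and 2 lower, a total likewise near 62.1%. Tug1 was among the higher (1.90, SE 0.214, with 401 ± 159 and 539 ± 102 CPM in irradiated and homeostasis CD49b+ plates), and Peg13 among the lower (−1.87, SE 0.420), while Dleu2 was not called (0.91, SE 0.483). Sox2ot averaged 40.3 ± 23.4 and 38.3 ± 14.8 CPM in irradiated and homeostasis CD49b+ plates and at most 0.509 CPM in either CD49b− group. Pvt1 averaged 4.11 ± 7.12 and 0 CPM in irradiated and homeostasis CD49b+ plates, against 22.2 ± 7.66 and 26.6 ± 10.1 CPM in irradiated and homeostasis CD49b− plates. In CD49b− plates, 0 of the 32 tested genes of these 4 lists were called after irradiation, and likewise 0 in CD49b+ plates. Over all genes the shares called were as low as 0.0468% and 0.713%, so nothing is read from these counts.
None of the tested chromosomal neighbours of A330069E16Rik (Acp2, Madd, Pacsin3 and 1110051M20Rik) was called after irradiation in CD49b− plates, where their log2 differences ran from −1.30 to 0.12. Nor was Ltbp3, Frmd8 or Dpf2 beside Malat1 and Neat1, with 0.0468% of all genes called in that comparison.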

How the data were processed

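The authors deposited a table of raw UMI counts per gene and well, with no normalisation, for 12 plates. The submitters' processing notes name featureCounts 1.5.3, STAR 2.5.3a and both GRCm38 and GRCh38; UMI collapsing and the counting strand are not given in the sources used here. Per the labels' protocols, cells were lysed and reverse transcribed in the wells and libraries made with Nextera XT. The 6 genes and all gene lists were chosen with earlier results of these data known.

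Wells with at least 1000 UMIs, 500 genes and under 20% mitochondrial UMIs were retained (964 of 1150, with 5119450 of 5159668 UMIs). No doublet caller was run. Cells were sorted singly, but whether a well, such as those with UMIs of both marker lists, held more than 1 cell was not tested. UMIs were summed per plate, or per plate and class, and fitted with edgeR 4.0.16 in R 4.3.3 (TMM, filterByExpr, 1 mean per group, quasi-likelihood test, Benjamini-Hochberg adjustment over all genes tested, threshold 0.05), after the script was tested on simulated data. CPM are UMIs scaled to 1000000 retained UMIs of a plate or class, and CPM and shares of wells were computed with Python 3.11.15. Intervals of shares are exact 95% binomial intervals and, like floors of 3 counts, cover counting error only.

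The mouse identifiers in the labels show that CD49b+ and CD49b− plates of 1 replicate number share a pool. Deviations of the plates of a pool correlated over 8555 genes at 0.184, 0.113 and −0.0336 in irradiated and 0.0971, 0.0431 and 0.0587 in homeostasis pools. A fit with the pool as replicate block was an alternative, beside DESeq2 1.42.0, no low-count filter, thinned wells, at least 2000 UMIs per well, and leaving out wells or plates. Reads of overlapping antisense models could not be told apart without strand: of the 31-base words of the 6 genes, 2.20% (Neat1) to 26.9% (Miat) occur in another gene model. The antisense models Gm26906 (Meg3), Gm37376 (Malat1) and Gm26953 (Miat) had 0, 0 and 3 retained UMIs.

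Besides the 6 genes, the text names the 3 genes most alike to each over plates, up to 4 called genes of a list and 1 that was not, and the nearest tested neighbours on the chromosome. Gm10800, Ddb2 and marker genes were named outside this rule, and a few genes that it gives are not reported here.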

Additional observations from a re-analysis of the deposited data

Results flagged for a closer look

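In 13 sets of plates or pools of these genes checked for a value far from the rest, 2 stood apart. Chance flags about 1 in 20 such sets. The log2 difference of Malat1, CD49b+ minus CD49b−, was −0.742 in the irradiated pool of replicate 1, and −0.03 to 0.37 in the other 5 pools. The CD49b+ plate of that pool had the lowest Malat1 level of its gate (17176 CPM), 1 well against its gate and the lowest mean correlation with the other CD49b+ plates (0.705). Without that well the difference was −0.61, and without the plate the fitted difference between the gates was 0.06 (SE 0.177), against 0.01 (SE 0.188) with it. The log2 difference of Neat1 was −4.57 in the homeostasis pool of replicate 2, against −1.56 to −0.653 in the other 5. The CD49b+ plate of that pool had 0 Neat1 UMIs, so the value depends on the pseudocount of 0.5 UMIs.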

How the results depend on the processing

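Each result was recomputed under every alternative that could be fitted. No log2 difference of the 6 genes past its threshold changed sign. Of the 6 genes, 5 were fitted on plates, 6 without the low-count filter or without a CD49b+ plate, 4 with 1 UMI at most and 3 with thinned wells. Between the gates 4 were called, 4 of 5 or 5 of 6 with single plates left out, where Malat1 was never called and Miat was added, and 2 of 3 with wells thinned to 1000 UMIs. For irradiation in CD49b− plates the number called was 1, and 0 to 1 with single plates left out. It was 0 with thinned wells and 0 with 1 UMI at most per gene and well. A330069E16Rik was below the filter in both settings and could not be called there. For irradiation in CD49b+ plates the number called was 2, and 0 to 2 with single plates left out. It was 0 with thinned wells, 0 without wells against their gate and 0 with 1 UMI at most. Leaving out homeostasis CD49b+ plate 3 gave 0, with a Meg3 log2 difference of 2.43. For the difference of irradiation effects it was 0, also without wells against their gate. It was 2 without the low-count filter, 2 by DESeq2, and 0 to 2 with single plates left out (2 without irradiated CD49b+ plate 3). For nitrergic against cholinergic wells it was 1, 1 to 1 with single plates left out, 0 with thinned wells and 0 with no replicate block, where Malat1 kept a log2 difference of 0.25 (adjusted p of 0.503 by edgeR). For Gfap classes it was 0 of 1, 0 to 0 with single plates left out, and 2 of 5 without the low-count filter (Meg3 and Snhg11), which became 0 of 5, with 2 at an unadjusted p below 0.05, when the wells against their gate, all Gfap-zero, were left out as well. With the mouse pool as replicate block the counts stayed at 4 between the gates and 0 for the difference of irradiation effects, and no other call changed; irradiation within 1 gate could not be fitted with the block, since each pool had 1 treatment.

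Malat1 between the gates became 1.26 with 1 UMI at most per gene and well, a setting in which its 1 UMI in every well is divided by a plate total that is smaller in CD49b+ wells. Within the first plate number set, with 1 plate per group, Malat1 differed by −0.81 for irradiation in CD49b+ plates and −0.39 between the gates. For the difference of irradiation effects Malat1 stood at −0.71. Snhg11 differed by 2.24 for irradiation in CD49b+ plates, from 12 irradiated and 2 homeostasis UMIs. Of those 12, the well against its gate held 10. A330069E16Rik differed by 1.84 in that comparison, from 9 and 2 UMIs, and by −0.12 for the difference of effects.

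Over all genes, calls for irradiation in CD49b− plates were 4, and 45 without the filter, 0 thinned, 1 capped and 1 to 8 with plates left out. In CD49b+ plates they were 61, and 146, 16, 21 and 4 to 156 under those settings, 24 without wells against their gate and 99 by DESeq2. For the difference of effects they were 1, and 67 without the filter, 23 by DESeq2, 0 with the block and 0 to 87 with plates left out. Nitrergic calls were 420, and 270 without the block, 66 thinned and 232 by DESeq2. Gfap calls were 3, and 31 without the filter, 1 without wells against their gate, with or without the filter, and 1 to 6 otherwise. Gate calls were 5311, and 1550 thinned. The causes were not tested. Counts of 0 to 21 UMIs stand behind most CD49b+ values of Miat, Neat1, Snhg11 and A330069E16Rik.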

Other observations

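Wells below the filter held a smaller share of Malat1. In 139 unretained CD49b+ wells Malat1 made up 1.38% of the UMIs, against 2.69% in retained ones, and in 47 unretained CD49b− wells 1.84%, against 2.52%. These wells held 31948 and 8270 UMIs in all. A330069E16Rik had 3 UMIs in the unretained CD49b+ wells and 0 in the unretained CD49b− wells, and Meg3 had 3 and 13.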
